A study of Mus musculus with 12 samples.

Results

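The proteasome genes of the mouse heart were taken as all gene names on the array that begin with Psm, a letter from a to g and a digit. The rule matched 49 genes of 27248 named genes. One of them, Psmc3ip, encodes a protein that interacts with a subunit and is no part of the complex, so it was counted apart, which left 48 genes: 19 of the core particle (Psma and Psmb), 20 of the cap (Psmc and Psmd) and 9 activators, inhibitors and assembly factors (Psme, Psmf and Psmg). Signal was high enough to be tested for 47 of the 48, and 46 of these were well above background on all 12 arrays. The exception was Psma8. Psmb11, the thymus form of a catalytic subunit, had 1 probe that was not well above background on any array and was not tested.

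Hearts came from male C57BL6/J mice that were 5 months old, with 3 mice in each of 4 groups and 1 array per mouse. Control mice (C) had neither drug. Diabetic mice (D) had received streptozotocin, which kills the insulin-producing β-cells, at 50 mg/kg per day on 5 days, and the study counted mice with blood glucose of at least 17 mM as diabetic. The monoamine oxidase (MAO) inhibitor pargyline was given to control mice (C + P) and to diabetic mice (D + P) over 12 weeks, at a daily dose of 50 mg/kg, and the other mice were given vehicle according to the methods of the study. Streptozotocin itself could not be told apart from the diabetes it induced, and insulin was not part of any group. The C and D arrays shared 1 slide and 1 scan, and the C + P and D + P arrays shared another, so slide and pargyline cannot be told apart. Within both slides the diabetic and the non-diabetic samples lay in different rows, which means that diabetes and row cannot be told apart either.

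The proteasome degrades proteins that carry a chain of ubiquitin. Its core is a barrel of stacked rings, in which α subunits gate the entrance and β subunits hold the proteolytic sites. A cap with a ring of ATPases binds the ubiquitin chain, removes it, unfolds the protein and feeds it into the core. Other activators can take the place of the cap, chaperones guide assembly, and interferon exchanges the catalytic β subunits for those of the immunoproteasome. In heart muscle the complex removes damaged and misfolded proteins and takes part in the turnover of the sarcomere.

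Values are log2 of the quantile-normalised spot signal, and each gene is represented by its brightest tested probe. A difference of 1 is a doubling. The level of one gene cannot be set against that of another on this scale, since probes differ in how well they bind. Differences come from limma fits across all 12 arrays, and a gene was called where the p adjusted over all tested probes was under 0.05. None of the 47 genes was called in D vs C, in D + P vs C + P, in the average of both, in C + P vs C, in D + P vs D or in the interaction. Of all 16560 tested genes, 0.00604% were called in D vs C, 0.0785% in D + P vs C + P, 0.187% in the average, 0.0543% in C + P vs C, 0% in D + P vs D and 0.0121% in the interaction. Without adjustment, p was under 0.05 for 3 of the 47 in D vs C, for 1 in D + P vs C + P and for 3 in the average of both. The shares of all genes at that level were 10.2%, 7.84% and 11.8%. For C + P vs C, D + P vs D and the interaction, 0 of the 47 reached it, beside 4.51%, 12.2% and 6.31% of all genes. These counts moved with the samples and the processing. Leaving out 1 array gave 1 to 4 genes in D vs C, 0 to 1 in D + P vs C + P, 1 to 5 in the average, 0 in C + P vs C, 0 to 3 in D + P vs D and 0 to 1 in the interaction. The other alternatives gave 1 to 8, 0 to 7, 1 to 14, 0 to 7, 0 to 4 and 0 to 2 in the same order.

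The unadjusted differences fell on 3 genes, Psme4, Psmc2 and Psmd10. Psme4 encodes PA200, an activator that caps the core without ATP. Psmc2 encodes one of the ATPases of the cap ring, and Psmd10 encodes gankyrin, a chaperone of cap assembly. Their promoters are shown because these 3 genes stood furthest from 0 in the test. The sequences are from RefSeq (GRCm38.p6), run 5′ to 3′ on the strand of the gene, and cover 250 bases before the gene start and 50 after it. RefSeq held 2 starts for Psmc2. Capitals mark matches, on either strand, to TGACNNNGC, the core of the element bound by NFE2L1 and NFE2L2, and to CCAAT, the box bound by NF-Y. The other motif searched, the core of the interferon-stimulated response element (TTTC, any 2 bases and TTTC again), had no match in them.
Psme4, chr11:30771525-30771824, + strand: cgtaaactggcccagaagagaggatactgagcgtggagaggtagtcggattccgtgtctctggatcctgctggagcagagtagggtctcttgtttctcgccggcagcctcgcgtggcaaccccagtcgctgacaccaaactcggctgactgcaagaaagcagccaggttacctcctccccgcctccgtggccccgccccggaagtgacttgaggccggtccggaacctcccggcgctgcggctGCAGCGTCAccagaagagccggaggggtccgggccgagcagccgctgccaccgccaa
Psmc2, chr5:21785025-21785324, + strand: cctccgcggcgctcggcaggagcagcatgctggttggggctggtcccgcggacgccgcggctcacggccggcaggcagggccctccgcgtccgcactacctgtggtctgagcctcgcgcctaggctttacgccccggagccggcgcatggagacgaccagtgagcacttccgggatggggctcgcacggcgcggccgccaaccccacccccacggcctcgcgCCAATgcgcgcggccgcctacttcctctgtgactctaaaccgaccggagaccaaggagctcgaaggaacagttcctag
Psmc2, chr5:21786497-21786796, + strand: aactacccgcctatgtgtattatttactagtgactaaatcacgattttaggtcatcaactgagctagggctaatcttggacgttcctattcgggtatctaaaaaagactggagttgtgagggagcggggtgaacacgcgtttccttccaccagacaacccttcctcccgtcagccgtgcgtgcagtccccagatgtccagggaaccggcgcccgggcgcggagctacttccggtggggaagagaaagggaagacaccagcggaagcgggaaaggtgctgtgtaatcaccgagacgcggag
Psmd10, chrX:140956662-140956961, - strand: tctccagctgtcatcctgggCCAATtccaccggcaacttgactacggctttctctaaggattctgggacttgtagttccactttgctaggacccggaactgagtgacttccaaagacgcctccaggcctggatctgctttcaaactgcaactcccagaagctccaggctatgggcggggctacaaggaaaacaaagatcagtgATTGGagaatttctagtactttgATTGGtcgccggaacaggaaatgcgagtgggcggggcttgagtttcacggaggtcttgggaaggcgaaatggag

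The Psme4 promoter held 1 match to TGACNNNGC, on the reverse strand, whose first base lay at -7 from the gene start. The Psmd10 promoter held 3 CCAAT boxes, at -230, -47 and -24, and 1 of the Psmc2 promoters held 1, at -28. Promoters were found for 40 of the 48 genes, and those of Psma8, Psmb1, Psmb2, Psmb7, Psmc3, Psmd3, Psmd7 and Psmg2 were not in the table used. Of the 42 promoters of these genes, 14.29% held TGACNNNGC, against 12.39% of all 32851 promoters in the table. The genes concerned were Psmb5, Psmb6, Psmc6, Psmd9, Psmd12 and Psme4. CCAAT was held by 33.33% of the proteasome promoters and 37.41% of all promoters, and the interferon element by 11.9% and 3.44%. The 5 genes with the latter were Psmb3, Psmd4, Psmd9, Psme1 and Psmg4. These matches describe letters in a fixed window and not sites in use.

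Psme4 gave the smallest p of the 47 genes. Its signal was 12.87, 12.94 and 12.79 on the C arrays and 12.47, 12.43 and 12.51 on the D arrays. It was 12.98, 12.83 and 12.82 with pargyline alone and 12.73, 12.42 and 12.54 in D + P. Every diabetic array thus lay below every non-diabetic array of its slide, and D and D + P overlapped. The difference was -0.39 ± 0.14 (SE) in D vs C, or 0.761-fold, with an unadjusted limma p of 0.0149 and an adjusted p of 0.373. In D + P vs C + P it was -0.31 ± 0.14, with an unadjusted limma p of 0.0433 and an adjusted p of 0.656. Averaged over pargyline it was -0.35 ± 0.10, or 0.783-fold, with an unadjusted limma p of 0.0039 and an adjusted p of 0.226. Pargyline moved Psme4 by 0.01 ± 0.14 in control hearts and by 0.09 ± 0.14 in diabetic hearts, and the interaction was 0.08 ± 0.19. Under scaling to the 75th percentile the D vs C difference was -0.22 (adjusted p = 0.574), and after normexp background correction it was -0.18 (adjusted p = 0.799).

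Psme4 had 4 tested probes. The second brightest, A_55_P1976007, read 10.53, 10.61 and 10.40 in C and 9.53, 10.22 and 10.36 in D, a difference of -0.48 ± 0.22. In D + P vs C + P the same probe differed by -0.14 ± 0.22. The dimmest probe, A_51_P478978, which the files assign to a cDNA clone, read 6.76, 7.13 and 6.56 in C and 5.65, 5.36 and 5.08 in D. Its difference was -1.46 ± 0.26 in D vs C (adjusted p = 0.208), 0.02 ± 0.26 in D + P vs C + P, and 0.85 ± 0.26 in D + P vs D (adjusted p = 0.233). For the probe A_55_P2934541 the differences were -0.24 ± 0.52 and 0.33 ± 0.52. The probes of the gene were therefore all lower in D vs C and differed in sign in D + P vs C + P. Probe positions in mm9 were chr11:30780168-30780227 for the brightest and chr11:30739112-30739171 for the dimmest, and no annotation of this build was used to place them in exons or UTRs.

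**Figure D1:**
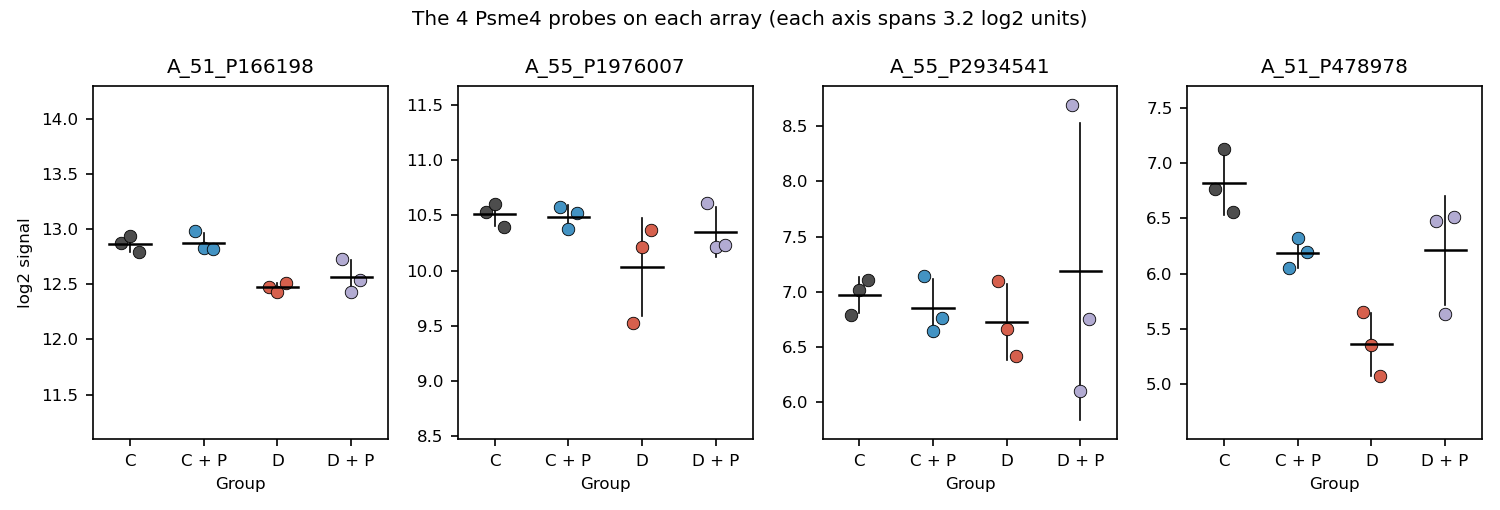
Log2 signal (y axis) of the 4 Psme4 probes on each array, by group (x axis), from the brightest on the left to the dimmest on the right. Points are arrays, horizontal lines group means and vertical lines 1 SD. On the left probe the D arrays lie at 12.43 to 12.51 and the C arrays at 12.79 to 12.94.

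Psmc2 read 12.67, 12.74 and 12.62 in C and 11.74, 12.35 and 12.46 in D. All 3 D arrays were below the C arrays, and D replicate 1 was the lowest. In C + P it was 12.76, 12.62 and 12.50, and in D + P 12.64, 12.28 and 12.45, so these groups overlapped. The difference was -0.50 ± 0.20 in D vs C (adjusted p = 0.424) and -0.17 ± 0.20 in D + P vs C + P. Without D replicate 1 the first of these was -0.27 (adjusted p = 0.508).

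Psmd10 had the largest positive difference of the 47 genes in D vs C. It read 8.08, 8.80 and 8.85 in C and 9.16, 9.03 and 9.14 in D, which do not overlap. The values were 8.45, 8.83 and 8.59 in C + P and 9.33, 8.76 and 8.75 in D + P, which do overlap. The difference was 0.53 ± 0.24, or 1.45-fold, in D vs C (adjusted p = 0.455), 0.33 ± 0.24 in D + P vs C + P and 0.43 ± 0.17 in the average (adjusted p = 0.383). Without C replicate 1, the lowest C array, the D vs C difference was 0.28 (adjusted p = 0.719), and without D + P replicate 1 the D + P vs C + P difference was 0.13.

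**Figure D2:**
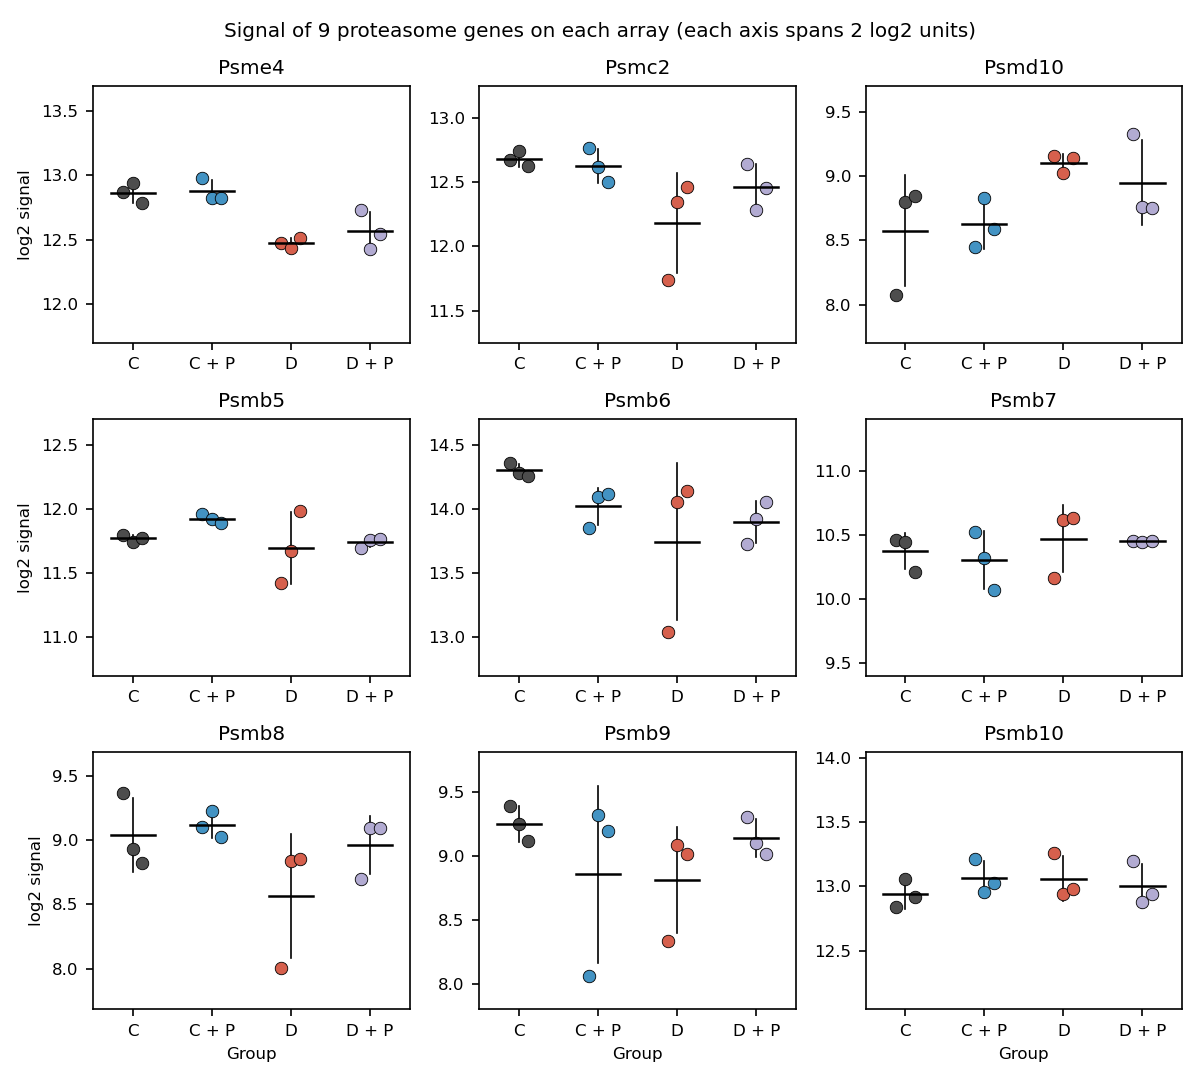
Log2 signal (y axis, 2 units in every panel) of Psme4, Psmc2, Psmd10, the constitutive catalytic subunits (middle row) and the immunoproteasome subunits (bottom row) by group (x axis). Points are arrays, horizontal lines group means and vertical lines 1 SD; D replicate 1 is the lowest D array for Psmc2, Psmb6, Psmb8 and Psmb9.

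After quantile normalisation most proteasome genes had a slightly lower mean in diabetic hearts, and in D vs C this turned under scaling to the 75th percentile. In D vs C, 30 of the 47 were lower and 17 higher, with a median difference of -0.08, while all tested genes had a median of 0.00 and 50.2% were higher. In D + P vs C + P, 35 were lower and 12 higher, with a median of -0.11 against -0.01 for all genes. In both comparisons 25 genes were lower and 7 were higher. Under that scaling the median in D vs C became 0.03, with 29 genes higher, and the median of all genes became 0.04. It gave -0.19 in D + P vs C + P, and normexp correction gave -0.03. The median within-group SD was 0.23 for the 47 genes and 0.29 for all genes, and ranged from 0.07 for Psma6 to 1.09 for Psma8.

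Arrays of 2 groups did not overlap for 13 of the 47 genes in D vs C, 3 of them higher and 10 lower, against 23.5% of all genes. The corresponding counts were 0 higher and 5 lower in D + P vs C + P, where 14.3% of all genes did not overlap. They were 1 higher and 2 lower in C + P vs C (16.7% of all genes) and 0 higher and 1 lower in D + P vs D (16.9%). Psme4 and Psmd13 were the 2 genes whose arrays were separate and lower in both diabetic comparisons, as were those of 1.5% of all genes. Psmd13, a scaffold subunit of the cap lid, read 12.37, 12.37 and 12.36 in C and 12.25, 12.16 and 12.28 in D, and 12.47, 12.46 and 12.32 in C + P and 12.02, 12.24 and 12.25 in D + P. Its differences were -0.14 ± 0.13 and -0.25 ± 0.13. These values are from the brightest Psmd13 probe. The dimmer one, A_52_P50512, read 7.32, 7.23 and 7.30 in C and 7.30, 7.55 and 7.29 in D. It read 7.32, 7.25 and 6.62 in C + P and 7.02, 6.93 and 7.31 in D + P, so it overlapped in both comparisons. With 3 arrays against 3, an exact permutation test cannot go below a two-sided p of 0.1.

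**Figure D3:**
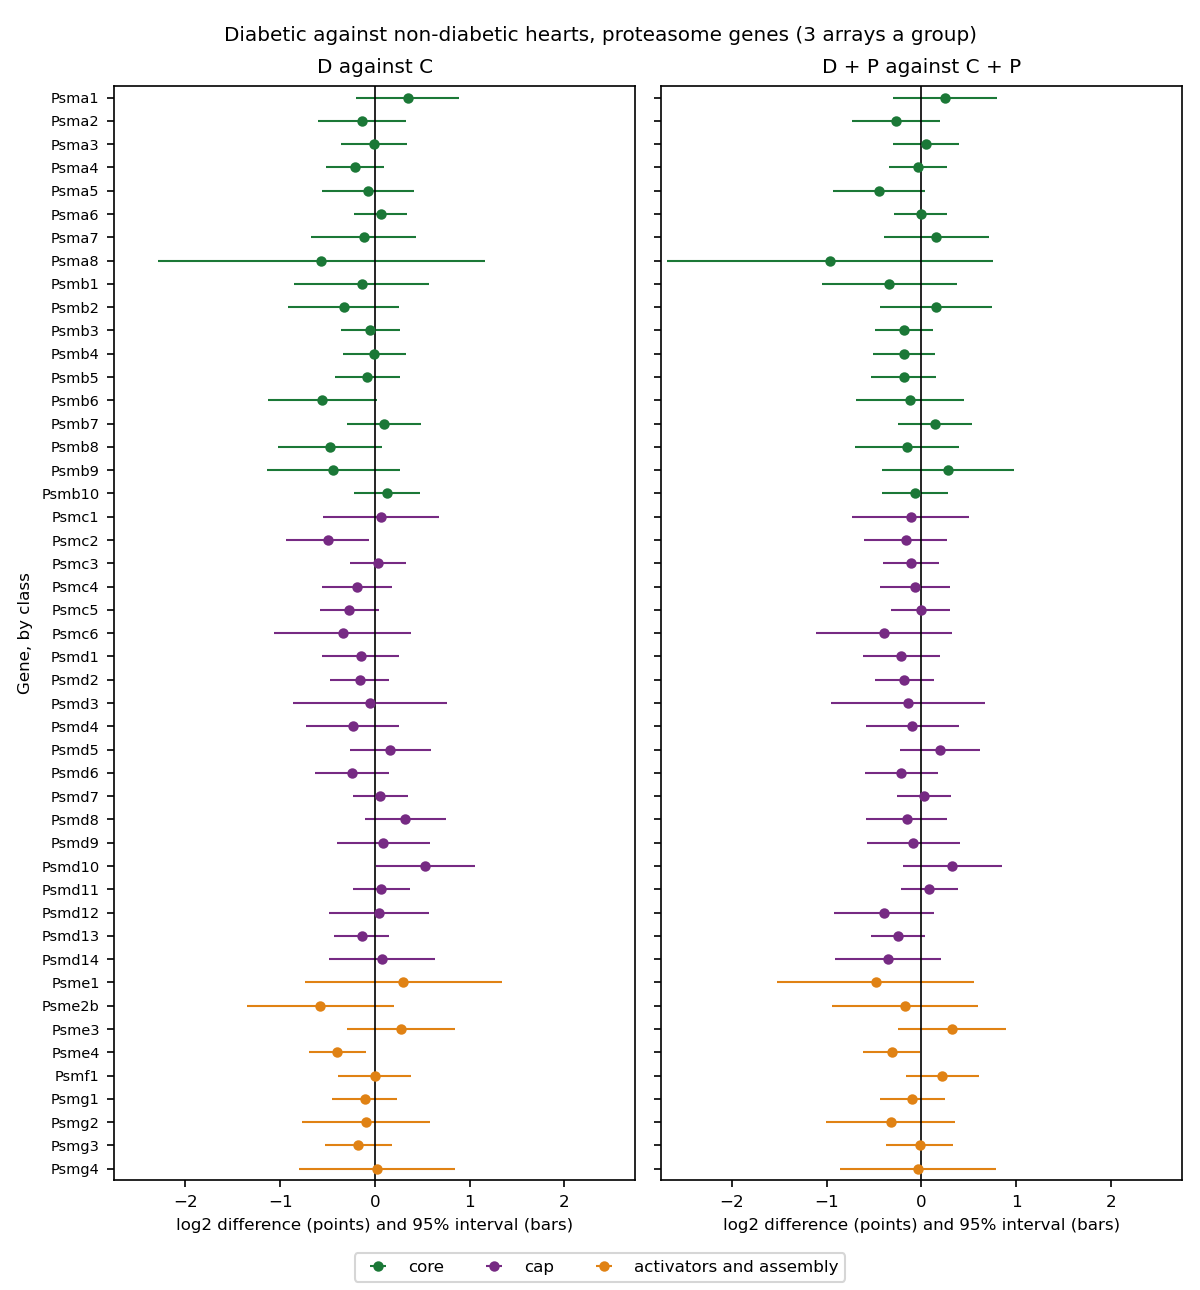
Log2 difference (x axis) of each of the 47 tested genes (y axis) in D vs C on the left and in D + P vs C + P on the right. Points are limma estimates, bars their 95% intervals and colours the 3 classes; the intervals of Psme4 lie below 0 in both panels.

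The shift was not even over arrays. Of the 47 genes, 32 to 35 were above their own 12-array mean on each C array, 27 to 33 on each C + P array, 20 to 27 on each D array and 10 to 28 on each D + P array. On D + P replicate 2 the count was 10 in all and 1 of 20 in the cap, while 43.9% of all genes were above their mean there. D replicate 1 had a median deviation of -0.16 for the proteasome genes and 0.04 for all genes. This array had the highest median coefficient of variation of processed signal for non-control probes, at 23.2%. For this measure 5 arrays were outside the range that the scanner software accepts. These were C replicate 1, C + P replicate 1, D replicate 1 and D + P replicates 1 and 3, and the lowest value was 3.89% on C replicate 3. Without the 5 arrays the median difference of the 47 genes was -0.04 in D vs C and -0.16 in D + P vs C + P. D + P was then a single array.

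**Figure D4:**
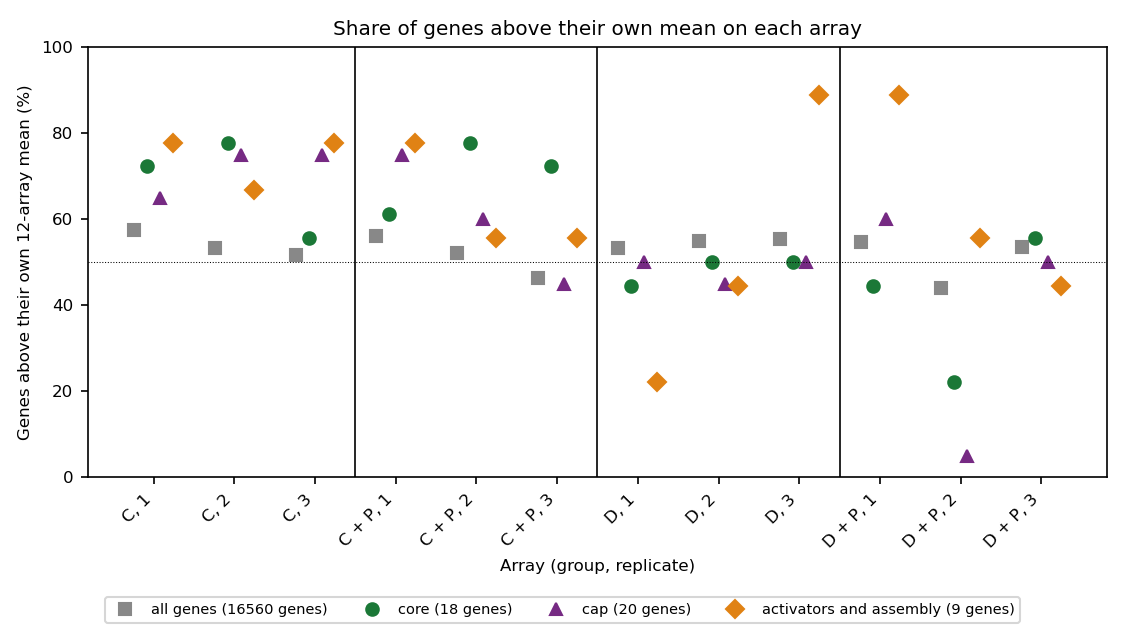
Percentage of genes above their own mean over the 12 arrays (y axis) on each array (x axis), for all tested genes and the 3 classes of proteasome genes. The cap genes lie at 5% on D + P replicate 2, and the all-gene shares lie between 43.9% and 57.5%.

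Leaving out 1 array moved the difference by over 1.5 times, or turned its sign, for 41 of the 47 genes in D vs C, 41 in D + P vs C + P, 44 in C + P vs C and 46 in D + P vs D. Psme4 and Psmd13 were not among them in either diabetic comparison.

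In the α rings of the core, 8 genes were tested. Psma1 was the member with the largest positive difference, with 11.62, 11.82 and 11.90 in C and 12.16, 12.20 and 12.02 in D, and a difference of 0.35 ± 0.25. In D + P vs C + P it differed by 0.25 ± 0.25, and by -0.01 without C + P replicate 1. Psma5 read 10.97, 11.58 and 11.30 in D + P against 12.14, 11.46 and 11.59 in C + P, a difference of -0.45 ± 0.22 (adjusted p = 0.680; -0.29 without D + P replicate 1), and at -0.38 ± 0.22 in D + P vs D. Psma2 differed by -0.27 ± 0.21 in D + P vs C + P, and Psma4 by -0.21 ± 0.14 in D vs C and 0.20 ± 0.14 in D + P vs D. Psma6 varied least, from 12.75 to 12.98 over the 12 arrays. Psma8, the form of the testis, was well above background on 8 of 12 arrays, ranged from 3.22 to 6.61, and had the lowest differences of the 8 genes, -0.56 ± 0.78 in D vs C, -0.96 ± 0.78 in D + P vs C + P and -0.45 ± 0.78 in D + P vs D, whose intervals all held 0.

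The β rings hold the 3 constitutive catalytic subunits, Psmb5 (chymotrypsin-like), Psmb6 (caspase-like) and Psmb7 (trypsin-like). Psmb6 read 14.35, 14.28 and 14.26 in C and 13.04, 14.05 and 14.14 in D. All D arrays lay below the C arrays, with D replicate 1 by far the lowest. The difference was -0.55 ± 0.26 (adjusted p = 0.465), and without D replicate 1 it was -0.20 (adjusted p = 0.638). Psmb5 differed by -0.08 ± 0.15 in D vs C, with a 95% interval from -0.42 to 0.26, and by -0.19 ± 0.15 in D + P vs C + P. Psmb7 differed by 0.10 ± 0.18 and 0.15 ± 0.18. Of the structural β subunits, Psmb2 differed by -0.33 ± 0.27 in D vs C (-0.08 without D replicate 3) and -0.37 ± 0.27 in C + P vs C (-0.14 without C + P replicate 1), and Psmb3 and Psmb4 differed by -0.18 ± 0.14 and -0.18 ± 0.15 in D + P vs C + P. The intervals of all of these held 0.

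The immunoproteasome replaces those catalytic subunits by Psmb8, Psmb9 and Psmb10. Psmb8 read 9.36, 8.93 and 8.82 in C and 8.0, 8.84 and 8.85 in D, a difference of -0.48 ± 0.25 (adjusted p = 0.502), and 8.70, 9.10 and 9.09 in D + P, which was 0.40 ± 0.25 from D. Psmb9 read 9.39, 9.24 and 9.11 in C, 8.33, 9.08 and 9.01 in D, and 9.30, 9.10 and 9.01 in D + P. Its differences were -0.44 ± 0.32 in D vs C and 0.33 ± 0.32 in D + P vs D, and one C + P array, replicate 1, stood at 8.06 against 9.32 and 9.19. Psmb10 lay between 12.84 and 13.26 on all arrays and differed by 0.12 ± 0.16 in D vs C. Without D replicate 1, their lowest D array, Psmb8 and Psmb9 differed by -0.19 and -0.20 in D vs C and by 0.12 and 0.09 in D + P vs D.

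Markers of leukocytes and macrophages, cells with much immunoproteasome, were measured beside these subunits, and none was called in any comparison. Of 11 such genes 10 were tested, 1 of these 10 was higher in D vs C, with a median of -0.36, and 2 in D + P vs C + P, with a median of -0.41. Both medians stayed below 0 under scaling to the 75th percentile (-0.30 and -0.45) and after normexp correction (-0.11 and -0.33), and without D replicate 1 the first was -0.18. Their summed normalised signal ranged from 51500 to 58314 in C, 35296 to 52074 in D, 47082 to 52441 in C + P and 43829 to 48553 in D + P. All 10 were well above background on every array, and Cd79a, a B cell marker, was not tested. Of 9 cardiomyocyte markers all were well above background on every array. Psmb8 differed by -0.15 ± 0.25 in D + P vs C + P, Psmb9 by 0.28 ± 0.32 and Psmb10 by -0.06 ± 0.16. In whole heart, fewer cells of a type and less RNA per cell cannot be told apart, and the part of leukocytes in the values of Psmb8 and Psmb9 was not tested.

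The 6 ATPases of the cap ring, Psmc1 to Psmc6, had a median of -0.23 in D vs C, with 4 lower and 2 higher, and a median of -0.11 in D + P vs C + P, with all 6 lower (4 of 6 after normexp correction). Both medians stayed below 0 under scaling to the 75th percentile (-0.14 and -0.17) and after normexp correction (-0.22 and -0.07). D + P replicate 2 was the lowest D + P array for Psmc1, Psmc2, Psmc3 and Psmc5. Without it, Psmc1 and Psmc5 were higher in D + P vs C + P. Without D replicate 1, Psmc1 and Psmc3 were lower in D vs C too, and the differences of Psmc2, Psmc4, Psmc5 and Psmc6 were smaller. Psmc5 read 11.93, 11.85 and 11.88 in C, 11.45, 11.65 and 11.73 in D, and 11.95, 11.70 and 12.00 in D + P. It was separate from C on every D array, with a difference of -0.27 ± 0.14 (adjusted p = 0.502; -0.19 without D replicate 1), and differed by 0.27 ± 0.14 in D + P vs D. Psmc4 differed by -0.19 ± 0.17 in D vs C. Psmc6 differed by -0.39 ± 0.33 in D + P vs C + P, and by -0.09 without D + P replicate 1.

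The 14 Psmd genes had 8 members higher and 6 lower in D vs C (12 and 2 under scaling to the 75th percentile, 7 and 7 after normexp correction), 4 higher and 10 lower in D + P vs C + P, and 1 higher and 13 lower in D + P vs D, where the median was -0.13 (-0.21 and -0.12 under these alternatives). The one that was higher there was Psmd4, by 0.23 ± 0.22, and by 0.07 without D replicate 1. Psmd4 and Psmd2 are a ubiquitin receptor and a docking subunit. They differed by -0.23 ± 0.22 (-0.08 without D replicate 1) and -0.16 ± 0.14 in D vs C. Psmd14, the deubiquitinase that removes the chain, averaged 10.64 ± 0.56 (SD, n = 3) in D + P, where replicate 2 was the lowest, and read 11.18, 10.95 and 10.98 in D. Its difference in D + P vs D was -0.39 ± 0.25, and -0.07 without that replicate. Psmd8 averaged 10.09 ± 0.10 (SD, n = 3) in D and 9.74 ± 0.25 in D + P, whose arrays did not overlap, and differed by 0.32 ± 0.19 in D vs C and by -0.35 ± 0.19 in D + P vs D (adjusted p = 0.446). Psmd12 differed by -0.40 ± 0.24 in D + P vs C + P and by -0.44 ± 0.24 in D + P vs D, and without D + P replicate 1 by -0.24 and -0.28. Psmd6 differed by -0.24 ± 0.18 and -0.21 ± 0.18 in the diabetic comparisons, with D separate from C on this brightest probe. D and C overlapped on its other tested probes, A_51_P288103 and A_66_P113138. The latter read 8.54, 9.08 and 9.04 in C and 8.16, 9.57 and 9.31 in D.

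The cap is put together by chaperones, among them Psmd5, Psmd9 and Psmd10. Psmd5 differed by 0.16 ± 0.19 in D vs C and by 0.19 ± 0.19 in D + P vs C + P, and Psmd9 by 0.09 ± 0.22 and -0.09 ± 0.22. The core is assembled with Psmg1 to Psmg4. In D vs C these differed by -0.11 ± 0.15 (Psmg1), -0.09 ± 0.31 (Psmg2), -0.17 ± 0.16 (Psmg3) and 0.02 ± 0.37 (Psmg4). Psmg4 read 7.88 on D replicate 1 and 9.52 and 9.47 on the other D arrays, and without that replicate its difference in D vs C was 0.56. Psmg2 read 9.64 on D + P replicate 3 and 10.98 and 10.68 on the others. All 4 intervals held 0 in the diabetic comparisons.

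Among the other activators, Psme1 and Psme2 form the interferon-inducible ring PA28αβ and Psme3 forms PA28γ of the nucleus. Psme1 read 13.16, 12.60 and 12.84 in D and 12.83, 12.52 and 10.55 in D + P, a difference of -0.90 ± 0.47 (adjusted p = 0.429), and -0.19 without D + P replicate 3. The array names no Psme2 of its own: 2 probes named Psme2b also list a transcript of Psme2, so the 2 near-identical genes cannot be told apart. They read 13.01, 13.12 and 12.97 in C and 11.73, 12.90 and 12.75 in D on the brighter probe, a difference of -0.58 ± 0.35, or -0.21 without D replicate 1. C + P replicate 1 was at 11.95 as well. The dimmer probe read 10.20, 9.96 and 9.85 in C, 9.72, 10.11 and 9.95 in D, and 10.35, 10.09 and 9.85 in C + P. On it neither D nor C + P was separate from C. Psme3 differed by 0.28 ± 0.26 in D vs C (0.03 without D replicate 1) and 0.32 ± 0.26 in D + P vs C + P (0.18 without C + P replicate 3). Psmf1, the inhibitor PI31, differed by 0.00 ± 0.17 and 0.22 ± 0.17.

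**Figure D5:**
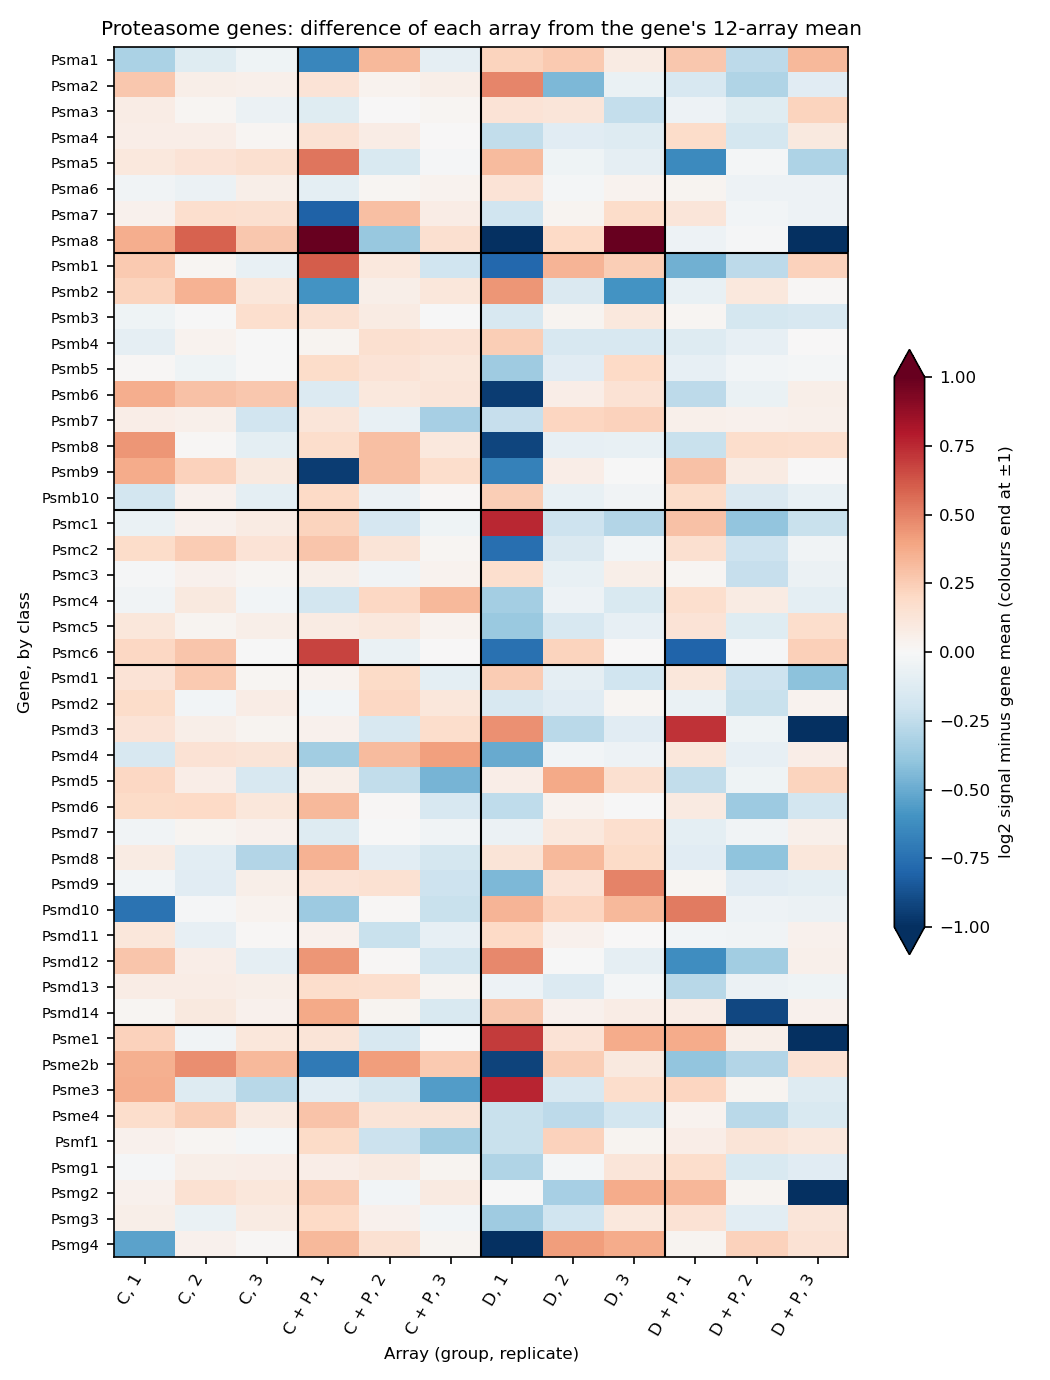
Difference of log2 signal from the 12-array mean of the gene (colour; the scale ends at ±1) for the 47 tested genes (rows, by class) on each array (columns, by group). Single dark cells, such as Psme1 and Psmd3 on D + P replicate 3 and Psmd14 on D + P replicate 2, mark arrays apart from their group.

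Pargyline in control hearts gave a median of 0.00 over the 47 genes, with 25 higher and 22 lower. The largest difference was -0.39 ± 0.35, for the brighter Psme2b probe, which was -0.04 without C + P replicate 1. In diabetic hearts the median was -0.06, with 18 higher and 29 lower, while 46.8% of all genes were higher and their median was -0.03. The differences of the diabetic effect with and without pargyline were largest for Psme1, at -0.78 ± 0.67, and Psmb9, at 0.72 ± 0.45. Without D + P replicate 3 the first was -0.07, and without C + P replicate 1 the second was 0.32. Psmd8 had the smallest interaction p (adjusted p = 0.741), at -0.48 ± 0.27. Neither C + P vs C nor D + P vs D can be told apart from a comparison between slides. The interaction sets diabetic effects measured on different slides against each other.

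For 26 of the 47 genes several probes were tested. In D vs C the probes of 13 of these 26 had both signs, and in D + P vs C + P those of 17. Besides Psme4, probes with an unadjusted p under 0.05 went against another probe for Psmd7, Psme3 and Psmg2. The dimmer Psmd7 probe, A_55_P2935710, differed by -0.90 ± 0.36 in D vs C and 1.11 ± 0.36 in D + P vs D, where the brighter probe differed by 0.06 ± 0.13 and -0.10 ± 0.13. The dimmer Psme3 probe differed by -0.42 ± 0.17 in the average of the diabetic comparisons and the brighter by 0.30 ± 0.18. A Psmg2 probe, A_55_P2742226, differed by 0.50 ± 0.22 in D + P vs D, against -0.23 ± 0.31 for the brightest. Adjusted p was 0.202 or higher for every probe of the 47 genes in these comparisons.

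Genes that work with the proteasome were set beside it in 7 lists with 81 genes, of which 79 were tested. None was called in any comparison. The unadjusted p was under 0.05 for 10 in D vs C, 1 higher and 9 lower, for 6 in D + P vs C + P, for 4 in C + P vs C and for 10 in D + P vs D, 7 higher and 3 lower. As shares of the 79 these counts were 12.7%, 7.59%, 5.06% and 12.7%, close to the 10.2%, 7.84%, 4.51% and 12.2% of all genes.

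The list of interferon and antigen processing genes held most of those counted in D vs C and in D + P vs D, and 3 of the 6 in D + P vs C + P. Of its 25 genes, 5 were higher in D vs C, with a median of -0.33 and 8 at an unadjusted p under 0.05, all lower. The count was 15 of 25 higher in D + P vs C + P, with a median of 0.11 and 3 at an unadjusted p under 0.05, all higher. In D + P vs D, 23 of 25 were higher, with a median of 0.28 and 6 at an unadjusted p under 0.05, all higher. D vs C and D + P vs D share the D arrays. Under scaling to the 75th percentile their medians were -0.29 and 0.19, and after normexp correction -0.25 and 0.25, with 20 of 25 higher in D + P vs D in either case. Without D replicate 1 they were -0.24, with 5 genes at an unadjusted p under 0.05, all lower, and 0.27, with 3, all higher. In the average of the diabetic comparisons 10 of 25 were higher, with a median of -0.12. There 1 higher and 3 lower genes had an unadjusted p under 0.05. Irf7, a transcription factor of the interferon pathway, differed by 0.49 ± 0.12 in that average (adjusted p = 0.194). In D vs C the leukocyte and macrophage markers above had a median of -0.36 and the endothelial markers of -0.02. The leukocyte and macrophage markers had a median of -0.05 in D + P vs D, with 3 of 10 higher. The 7 endothelial markers had a median of 0.35 in D + P vs D, and all 7 were higher (6 of 7 under either alternative). The slides of C and D on one side and D + P on the other differ, and the part of slide, leukocytes and endothelial cells in these values was not tested.

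In the other lists the smallest p values were as follows. Among regulators of subunit genes, Nfyb, a subunit of NF-Y, differed by 0.50 ± 0.15 in D + P vs D (adjusted p = 0.226) and Nfe2l2 by 0.29 ± 0.19 in the average of the diabetic comparisons (adjusted p = 0.581). Among shuttle factors, Ubqln1, which carries ubiquitinated proteins to the complex, differed by 0.36 ± 0.12 in that average (adjusted p = 0.311) and by -0.37 ± 0.17 in D + P vs D (adjusted p = 0.369). Of 12 muscle ubiquitin ligases, Trim54 (MuRF3) differed by -0.33 ± 0.15 in that average (adjusted p = 0.429) and Nedd4 by 0.32 ± 0.15 in D + P vs D (adjusted p = 0.381). Ube2d3, a ubiquitin-conjugating enzyme, differed by -0.47 ± 0.15 in D + P vs D (adjusted p = 0.251) and Ube2n by -0.34 ± 0.25 in the average (adjusted p = 0.643). Ecpas, a scaffold that binds the complex and is named AI314180 in the files, differed by -0.36 ± 0.18 in the average (adjusted p = 0.493), and Zfand2a by -0.47 ± 0.24 in D + P vs D (adjusted p = 0.415). Pomp, the core assembly factor, differed by -0.08 ± 0.12 and 0.06 ± 0.17.

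The precision is set by 3 mice a group. The 95% interval was within 0.5 log2 units on either side for 28 of the 47 genes in D vs C, and for 40 in the average over pargyline. Between 23556 and 29231 of the 59305 spots were well above background per array.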

How the data were processed

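Total RNA of 12 hearts was labelled with Cy3 and hybridised to single-colour Agilent 8 × 60K arrays, 1 per mouse. The deposited scanner files hold spot intensity on a linear scale, which per the file headers Feature Extraction 12.0.0.7 had corrected for background and spatial trend, with flags of 0 or 1 for each spot. The deposited series table holds intensity that the authors quantile normalised, for 47757 spots, and was used as an alternative. Here the scanner intensity was log2 transformed and quantile normalised between the arrays, spots with outlier flags were set to missing, and a probe was tested if at least 50% of its values in each of the groups carried the positive and significant flag (30859 of 56605 probes). Each gene took its brightest tested probe. Fits were made in R 4.3.3 with the limma package, version 3.58.1, by lmFit and eBayes on all 12 arrays with a mean for each group and two-sided tests, 8 residual degrees of freedom and Benjamini-Hochberg adjustment over all tested probes. The data.table (version 1.17.8) and jsonlite (version 2.0.0) packages were used, and figures drawn with matplotlib. The fit was checked on simulated data. Coordinates of probes are those of the files (mm9) and promoters are from RefSeq (GRCm38.p6). The interaction is the diabetic effect with pargyline minus that without. Alternatives covered scaling, background correction, filters, probe choice, blocks, array weights, the methods' t-test and each array left out. The lists without D replicate 1 were an alternative chosen after seeing the data.

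Proteasome genes were found by name. Those named in the text were chosen by role in the complex, as the 2 smallest p in each direction, class and comparison, and where probes disagreed. Of the 7 lists of genes that work with the proteasome, the gene with the smallest p was named for the average of the diabetic comparisons and for D + P vs D. Members and lists were chosen with earlier results of these data known. The lists were ubiquitin and its activation, cap partners and assembly factors without a Psm name, shuttle and extraction factors, regulators, muscle ubiquitin ligases, interferon and antigen processing, and markers of cardiomyocytes, atria, endothelium, fibroblasts, smooth muscle, leukocytes and red cells. Ube2d2 and Paaf1 had no probe of that name. Sln and Cd79a were not tested. Results of some genes on the lists, named by these rules or not, are not reported here.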

Additional observations from a re-analysis of the deposited data

How the results depend on the processing

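From 25 to 28 settings were run for each comparison, and the count of proteasome genes past the threshold was 0 in each, apart from array weights by REML, an alternative chosen after seeing the data. There 2 genes passed in D vs C, Psma2 (adjusted p = 0.0489) and Psme4 (adjusted p = 0.0212), and 1 passed in the average, Psme4 (adjusted p = 0.0157), all lower. With these weights 8.47% and 7.13% of all genes were called, and the estimation of the weights did not reach its convergence tolerance. Under all other alternatives no gene result crossed the threshold. The median difference of the 47 genes moved by more than its spread between replicates (SD 0.06) under scaling to the 75th percentile, to 0.033 in D vs C, -0.19 in D + P vs C + P, -0.20 in D + P vs D and -0.18 in the interaction. It was -0.029 in D + P vs C + P after normexp correction and -0.12 in D + P vs D without the 5 arrays of high spot variation, an alternative chosen after seeing the data. The cause was not tested. Leaving out 1 array at a time gave medians from -0.11 to -0.07 in D vs C, -0.13 to -0.06 in D + P vs C + P, -0.06 to -0.04 in D + P vs D and -0.080 to 0.017 in the interaction, where 0.017 came without D replicate 3. Replicate numbers did not pair the samples (correlation of deviations -0.20 to 0.20, mean 0.01, over 0.1 in 4 of 18 same-number pairs). With the replicate block 0 proteasome genes were called in every comparison, and over all probes 0 were called in D vs C (2 without the block), 8 in D + P vs C + P (14) and 4 in the average (39). The methods' t-test called 0 of the 47 genes after Bonferroni and after Benjamini-Hochberg adjustment.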

Other observations

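Of the other marker lists, the 7 endothelial genes were all higher in D + P vs D, with a median of 0.35 (6 of 7 under scaling to the 75th percentile and after normexp correction, with medians of 0.24 and 0.30). In D vs C 3 of 7 were higher, with a median of -0.02, which turned to 0.04 under that scaling. Kdr, the main VEGF receptor of endothelium, differed by 0.72 ± 0.18 in D + P vs D (adjusted p = 0.179). Their summed normalised signal ranged from 22052 to 32300 in D and from 30107 to 41254 in D + P. Fibroblast markers had medians of 0.04 in D vs C and -0.04 in D + P vs D, cardiomyocyte markers 0.04 and -0.05, smooth muscle and pericyte markers -0.11 and 0.14, and red cell markers 0.04 and -0.05. Of the 3 atrial genes, 2 were tested, with medians of 0.34 and -0.61. The signs of the fibroblast, cardiomyocyte and red cell medians in D vs C, and of the red cell median in D + P vs D, turned after normexp correction, and, apart from the endothelial median in D vs C given above, the other marker medians kept theirs under both alternatives. No gene of the marker lists was called in any comparison.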
